A study of Mus musculus with 6 samples.

Results

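The Serpin family of protease inhibitors was followed in mouse liver through 39 genes, all of those whose annotated symbol is Serpin plus a clade letter from a to i and a number. They were 39 of the 15644 probe sets with a symbol, out of 16331 gene probe sets on the array. Of the 39 genes, 18 belong to the clades whose best known members are secreted into plasma (13 of clade A, and Serpinc1, Serpind1, Serpinf1, Serpinf2 and Serping1 of clades C, D, F and G). Another 18 belong to clade B, whose proteins mostly stay inside the cell, and 3 to clades H and I (Serpinh1, Serpini1 and Serpini2). The 6 liver samples comprised 3 labelled wildtype (arrays 426, 428 and 430) and 3 labelled Ugcg-deficient (arrays 427, 429 and 431, called knockout here). Ugcg makes glucosylceramide, the first step towards most glycosphingolipids. The way the gene was removed, the cells that lost it, and the strain, sex and age of the mice were not given in the sources used here. No label ties a sample to an animal of its own, and the p-values therefore reflect variation among these 6 samples that could be technical.

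Serpins trap a protease by offering it a bait loop; once the loop is cut, the inhibitor changes shape and holds the enzyme in a dead-end complex that is then cleared from the circulation. Hepatocytes are the main source of the plasma members, which restrain elastase, thrombin, plasmin and the first enzymes of complement, while some members have lost inhibition and carry hormones instead. Clade B serpins guard the cell interior against proteases that leak from granules and lysosomes.

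All values are log2 expression values of single probe sets, and all differences are knockout minus wildtype on that scale. Array medians lay between 6.79 and 6.81. Of 9 hepatocyte markers, Alb read from 14.60 to 14.69 and Hnf4a from 10.09 to 10.50 over the 6 arrays. Of these 9 markers 3 had positive and 6 negative differences (median -0.0192); the list mean stood 0.0605 to 0.0745 above the wildtype mean on the knockout arrays, with Tat (0.43) and Pck1 (0.38) differing most. Knockout 427 and wildtype 430, from opposite groups, were together the highest 2 or the lowest 2 arrays for 19.4% of all probe sets, more than any other of the 15 pairs of arrays. Wildtype 430 carried transcripts of the exocrine pancreas: the mean of 12 such marker genes stood 1.7 above the wildtype mean there and between -0.956 and -0.781 from it on the other 5 arrays. Fewer cells of a type and less RNA per cell cannot be told apart in whole tissue. The probe set of Ugcg read 6.81, 6.85 and 6.87 on the wildtype arrays and 7.12, 6.70 and 6.68 on knockout arrays 427, 429 and 431. Which parts of the transcript its probes read is not stated, and it therefore does not check the labels, on which every direction here rests.

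The comparison of the genotypes asked whether serpin transcripts differed in liver lacking Ugcg. None of the 39 members passed limma's test at an adjusted p under 0.05, where 0.0245% of all probe sets did; the smallest adjusted p among the members was 0.951. At an unadjusted p under 0.05 there were 6 members, or 15.4% of them, against 4.99% of all probe sets. Of these, Serpina11, Serpina3n, Serpina9 and Serpina3a had higher means in the knockout group (4 members, or 10.3%, where 2.64% of all probe sets were higher at this level), and Serpina12 and Serpinb9d had lower means (2 members, or 5.13%, against 2.35%). Knockout and wildtype values were fully apart for 3 members, Serpina12, Serpinb9d and Serpinb2, or 7.69% against 9.57% of all probe sets. The 6 members at an unadjusted p under 0.05 became 3 (7.69%) without knockout 427, namely Serpina3n, Serpina9 and Serpina12, against 4.97% of all probe sets. They became 3 (7.69%) without wildtype 428, namely Serpina9, Serpina12 and Serpina4-ps1, against 3.99% of all probe sets. With 3 arrays a group an exact permutation test of a single gene cannot go below 0.1.

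**Figure D1:**
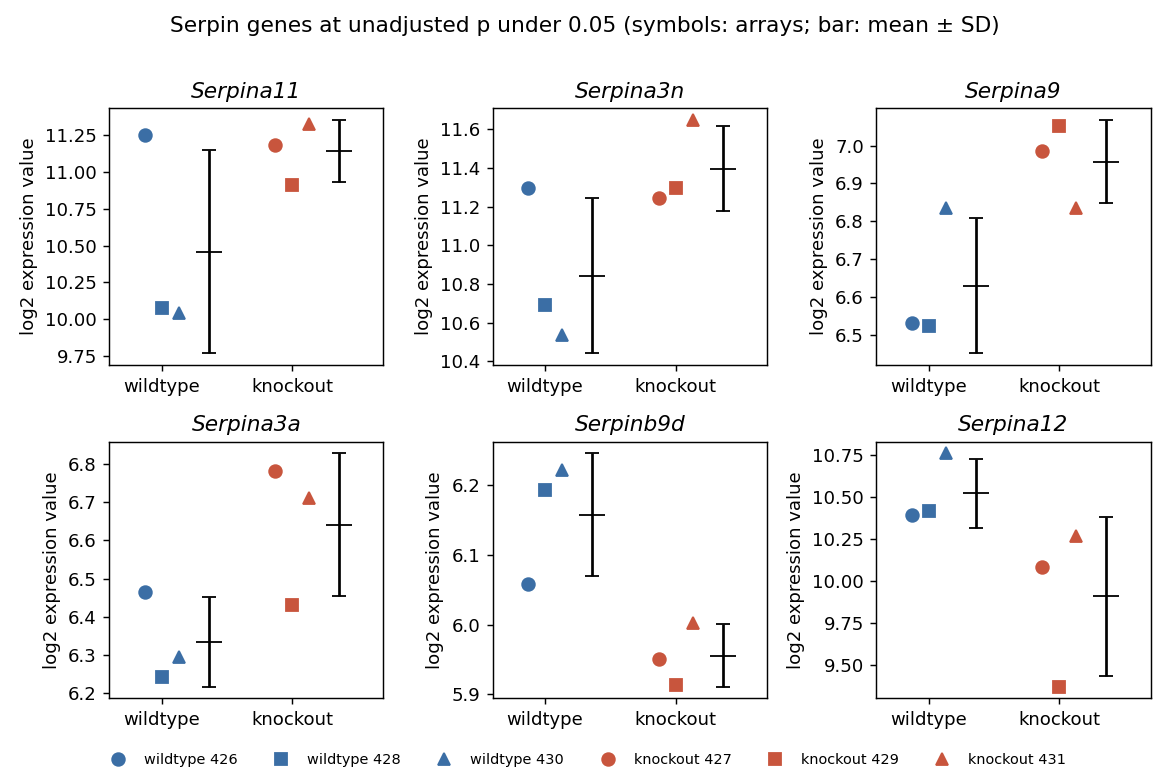
Log2 expression values (vertical axes) of the 6 Serpin genes at an unadjusted p under 0.05, by genotype; each symbol is 1 of 3 wildtype (blue) or 3 knockout (red) arrays and the bar is the mean ± SD. Serpina12 and Serpinb9d have knockout values wholly below the wildtype values, whereas wildtype 426 lies among the knockout arrays for Serpina11 and Serpina3n.

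Serpina12 encodes vaspin, a secreted serpin described as an adipokine that inhibits a kallikrein. Its probe set read 10.40, 10.42 and 10.76 on wildtype arrays 426, 428 and 430, and 10.08, 9.37 and 10.27 on knockout arrays 427, 429 and 431. Every knockout value lay below every wildtype value, with the lowest on knockout 429. The means were 10.52 ± 0.21 and 9.91 ± 0.48 (SD, n = 3 each), a 1.53-fold lower level in the knockout group with a 95% interval from 1.10-fold to 2.14-fold lower. The difference of -0.62 had an SE of 0.211 and a limma adjusted p of 0.951. It was -0.346 without knockout 429, and it lay between -0.798 and -0.498 when any other array was left out. The mean of 5 adipose marker genes stood 0.598 above the wildtype mean on knockout 431 and between -0.0237 and 0.0691 from it elsewhere; its part in the Serpina12 values was not tested.

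Serpina3n is a mouse relative of human alpha-1-antichymotrypsin, an acute phase protein that inhibits granule proteases of leukocytes. It read 11.30, 10.69 and 10.54 on the wildtype arrays and 11.24, 11.30 and 11.65 on the knockout arrays, in the order given above. The knockout values were close together and high, and wildtype 426 lay among them while the other 2 wildtype arrays were lower. The difference was 0.55 (SE 0.189, limma adjusted p = 0.951), or 1.47-fold with a 95% interval from 1.09-fold to 1.97-fold. Serpina11, a secreted clade A serpin of which little is known, had a like arrangement, with 11.25, 10.08 and 10.04 on the wildtype and 11.18, 10.91 and 11.33 on the knockout arrays. In both genes wildtype 428 and 430 were the lowest arrays and knockout 431 the highest. The difference of Serpina11 was 0.68 (SE 0.287, limma adjusted p = 0.982). Without wildtype 426 it was 1.08, with a limma adjusted p of 0.169, and over the other single omissions it ran from 0.475 to 0.798. Over all 12 alternative settings its limma adjusted p ran from 0.169 to 0.999. For Serpina3n the difference ran from 0.401 without wildtype 430 to 0.781 without wildtype 426.

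Serpina9, or centerin, is known from germinal centre B cells. Its wildtype values were 6.53, 6.52 and 6.84 and its knockout values 6.99, 7.05 and 6.84. The groups met at wildtype 430 and knockout 431, which read the same. The difference was 0.33 (SE 0.103, limma adjusted p = 0.951), and it lay between 0.274 and 0.431 whichever array was left out. Of 7 lymphocyte markers 3 had positive and 4 negative differences, with list means from -0.0744 to 0.0716 on the wildtype and -0.0793 to 0.0430 on the knockout arrays; their part in the Serpina9 values was not tested. Serpina3a, a close relative of Serpina3n, read 6.46, 6.24 and 6.29 on the wildtype and 6.78, 6.43 and 6.71 on the knockout arrays. Knockout 429 lay just below wildtype 426, and the difference was 0.31 (SE 0.106, limma adjusted p = 0.951). Its mean lay at or below the 40th percentile of all probe sets, as did that of Serpinb9d, so both are read near the dim end of the array.

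The promoters of 3 of these genes are shown with that of Serpinc1 as a contrast, whose values differed little between the groups. No expression value was measured on these promoter sequences. They are the 250 bases before the transcription start, from RefSeq on GRCm38.p6, 5′ to 3′ on the gene's strand, at chr12:104044444-104044693 (minus strand), chr12:103989944-103990193 (minus strand), chr12:104406458-104406707 (plus strand) and chr1:160978333-160978582 (plus strand). Capitals mark any match, on either strand, to TTGCNNAA, a C/EBP motif, TTCNNNGAA, a STAT motif, GTTAAT, a half-site of HNF1, or TATAAA, the TATA box.
Serpina12: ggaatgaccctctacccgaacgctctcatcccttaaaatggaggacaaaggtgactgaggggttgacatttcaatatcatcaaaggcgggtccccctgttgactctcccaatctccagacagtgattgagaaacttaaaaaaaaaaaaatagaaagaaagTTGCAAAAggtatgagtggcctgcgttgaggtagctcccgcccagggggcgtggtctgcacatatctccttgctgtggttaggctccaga
Serpina11: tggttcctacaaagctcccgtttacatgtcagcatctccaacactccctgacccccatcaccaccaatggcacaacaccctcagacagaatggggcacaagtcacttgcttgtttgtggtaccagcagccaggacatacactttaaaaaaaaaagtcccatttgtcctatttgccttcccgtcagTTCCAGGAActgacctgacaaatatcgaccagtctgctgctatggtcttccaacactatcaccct
Serpina3n: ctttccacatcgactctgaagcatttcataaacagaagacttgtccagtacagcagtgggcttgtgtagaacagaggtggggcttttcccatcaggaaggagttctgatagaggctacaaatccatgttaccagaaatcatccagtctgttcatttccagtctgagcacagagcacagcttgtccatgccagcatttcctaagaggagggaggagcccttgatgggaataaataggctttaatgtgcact
Serpinc1: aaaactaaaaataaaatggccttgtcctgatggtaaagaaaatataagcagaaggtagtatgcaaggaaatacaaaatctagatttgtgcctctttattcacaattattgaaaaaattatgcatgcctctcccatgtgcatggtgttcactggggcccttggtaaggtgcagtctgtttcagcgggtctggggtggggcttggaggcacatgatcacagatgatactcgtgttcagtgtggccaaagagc
Serpina12 held 1 match to the C/EBP motif, from -90 to -83 relative to its start. Serpina11 held 1 match to the STAT motif, from -65 to -57 relative to the start shown; RefSeq holds another start nearby, not shown. No letters of the 4 motifs were found in the windows of Serpina3n and Serpinc1. RefSeq promoters were matched for 33 of the 39 members, 13 of them in the plasma clades and 17 in clade B. The HNF1 half-site occurred in 3 of 13 plasma clade promoters (23.1%) and 1 of 17 clade B promoters (5.88%), and in 7.49% of 27025 genes with a promoter. The 3 plasma clade promoters were those of Serpina1a, Serpina1b and Serpina1c, near-identical gene copies, so they do not count as independent. The C/EBP motif occurred in 4 of 13 (30.8%) and 2 of 17 (11.8%), against 10.8% of all. The STAT motif occurred in 2 of 13 (15.4%) and 3 of 17 (17.6%), against 8.13%, and the TATA box in 1 of 13 (7.69%) and 4 of 17 (23.5%), against 14.3%. A match is a description of letters and not a site shown to be used.

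The 13 clade A genes lie on chromosome 12, and in the order of the reference gene table they run Serpina10, Serpina6, Serpina1f, Serpina1b, Serpina1a, Serpina1c, Serpina11, Serpina9, Serpina12, Serpina4-ps1, Serpina5, Serpina3a and Serpina3n. The first 6 had differences from -0.0814 to 0.0895, and 0 of them had an unadjusted p under 0.05. The last 7 had differences from -0.62 to 0.68, and 5 of them had an unadjusted p under 0.05, against 4.99% of all probe sets. This split of the row was made after the values were seen, and nothing is read from these counts or from the spans that follow. The span over all 6 arrays, highest minus lowest value, had a median of 0.235 in the first 6 genes and 1.11 in the last 7. It ran from 0.145 to 0.799 in the first 6 and from 0.468 to 2.79 in the last 7, so the ranges overlapped. The median span was 0.258 for the 26 members on other chromosomes and 0.277 for all probe sets. Among the last 7, Serpina11 and Serpina9 had positive differences, Serpina12 and Serpina4-ps1 negative ones, and Serpina5, Serpina3a and Serpina3n positive ones. Further Serpina genes that the reference places among these were not analysed here.

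**Figure D2:**
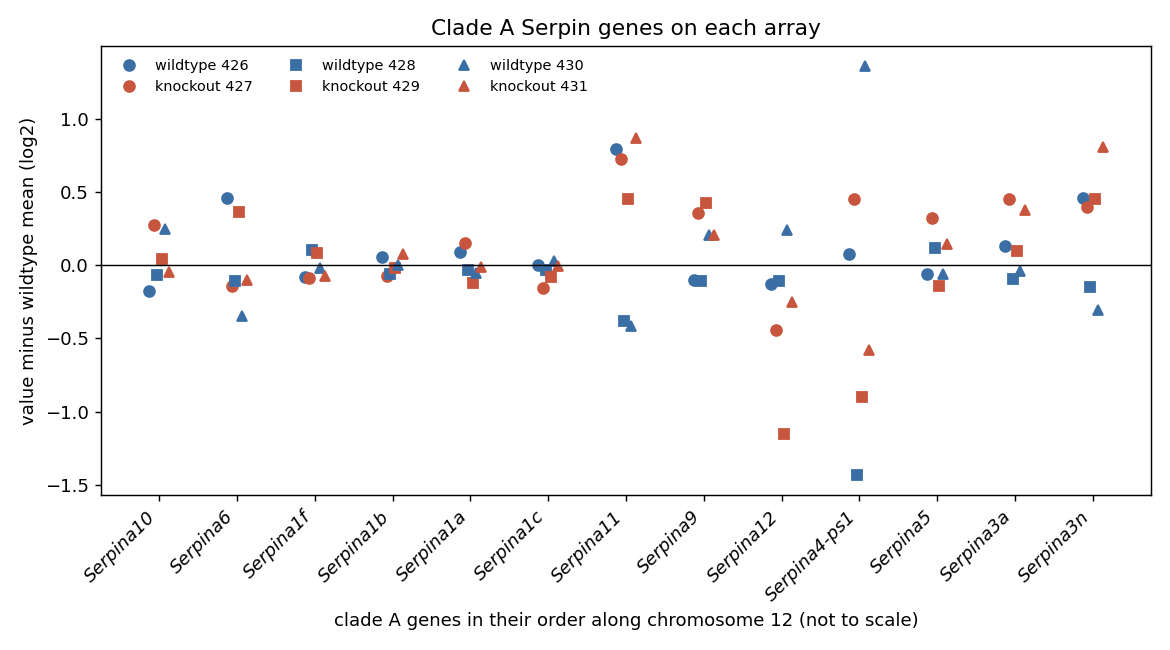
Value of each clade A gene on each array minus the wildtype mean of that gene (log2, vertical axis), in the order of the genes along chromosome 12 (horizontal axis, not to scale); blue symbols are wildtype and red symbols knockout arrays. The arrays lie close together from Serpina1f to Serpina1c and spread out most at Serpina4-ps1. In the close stretch Serpina1f was read near the dim end of the array, and Serpina1b and Serpina1c near its bright end. Serpina6 has a span of 0.799, wider than that of Serpina9 (0.528), Serpina5 (0.468) or Serpina3a (0.542).

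Serpina4-ps1, a transcribed pseudogene related to kallistatin, varied more than any other member. It read 10.67, 9.17 and 11.96 on the wildtype arrays and 11.05, 9.70 and 10.02 on the knockout arrays, so the lowest and the highest value were both wildtype. The span of 2.79, or 6.90-fold, was reached by 14 of the 16331 probe sets (0.0857%). The difference between groups was -0.34 (SE 0.610, 95% interval -1.73 to 1.04, limma adjusted p = 0.993). It was 0.334 without wildtype 430, the array with pancreatic transcripts, and -1.06 without wildtype 428. Any part of the pancreatic transcripts in the Serpina4-ps1 values was not tested. Knockout 427 and wildtype 430 had the highest 2 values.

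The plasma inhibitors of coagulation, fibrinolysis and complement differed little. Serpinc1, antithrombin, the heparin-activated inhibitor of thrombin, read 13.90, 13.82 and 13.78 on the wildtype and 13.89, 13.79 and 13.90 on the knockout arrays. The groups overlapped, and the difference was 0.03 (95% interval -0.136 to 0.187), which is 1.02-fold with an interval from 0.910-fold to 1.14-fold. Serpind1, heparin cofactor II, another thrombin inhibitor, read 12.03, 12.10 and 11.96 against 11.94, 12.074 and 11.996, with a difference of -0.03 (-0.196 to 0.139). Serpinf2, alpha-2-antiplasmin, the main inhibitor of plasmin, read 12.30, 12.38 and 12.28 against 12.002, 12.199 and 12.359. The groups overlapped, the lowest value was that of knockout 427, and the difference of -0.13 (-0.351 to 0.0841) was -0.0410 without that array and -0.220 without knockout 431. Serping1, the C1 inhibitor of complement and of the contact system, read 12.898, 12.998 and 12.894 against 12.85, 12.95 and 13.02, a difference of 0.01 (-0.160 to 0.182). Serpina10, which inhibits factor Xa with protein Z, read 11.81, 11.92 and 12.23 against 12.26, 12.03 and 11.94. Its highest arrays were knockout 427 and wildtype 430, and the difference of 0.09 (-0.192 to 0.371) was -0.00179 without knockout 427 and 0.213 without wildtype 430.

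The alpha-1-antitrypsin copies Serpina1a, Serpina1b and Serpina1c, inhibitors of neutrophil elastase, are near-identical genes, and which copy each probe reads is not stated, which leaves their separate values uncertain. Serpina1a read 13.59, 13.46 and 13.44 on the wildtype and 13.65, 13.38 and 13.49 on the knockout arrays. Serpina1b read 14.41, 14.30 and 14.36 against 14.29, 14.34 and 14.43. Serpina1c read 14.61, 14.58 and 14.64 against 14.45, 14.53 and 14.60. All 3 overlapped between groups, with differences of 0.01 (95% interval -0.194 to 0.208), -0.01 (-0.172 to 0.159) and -0.08 (-0.241 to 0.0785). The deposited values ran up to 14.69, so Serpina1b and Serpina1c were read near the bright end of the array. Whether differences are compressed there was not tested. The same limit of near-identical copies holds for the Serpina3, Serpinb6 and Serpinb9 genes.

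Serpina6, the corticosteroid-binding globulin, a serpin that carries glucocorticoids and inhibits no protease, read 11.10, 10.53 and 10.30 on the wildtype and 10.50, 11.01 and 10.54 on the knockout arrays. Wildtype 426 and knockout 429 were high and the other 4 arrays lower, whatever the genotype. The difference was 0.04 (95% interval -0.422 to 0.4999), and it ran from -0.133 without wildtype 430 to 0.266 without wildtype 426. Serpinf1, pigment epithelium-derived factor, which inhibits blood vessel growth and no protease, read 12.37, 12.41 and 12.13 against 12.30, 12.47 and 12.36, a difference of 0.08 (-0.133 to 0.286). It was -0.0101 without wildtype 430, the lowest array. The remaining clade A members were dim: Serpina5, the protein C inhibitor, had a difference of 0.11 (-0.160 to 0.376), and Serpina1f, known from the epididymis, one of -0.03 (-0.212 to 0.161). For all 10 of these bright plasma genes, from Serpinc1 to Serpinf1, the 95% interval lay inside a 1.5-fold change in either direction. That held for 34 of the 39 members and for 15863 of the 16331 probe sets, a lower share among the members. The 5 exceptions were Serpina11, Serpina12, Serpina3n, Serpina4-ps1 and Serpinb1a.

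**Figure D3:**
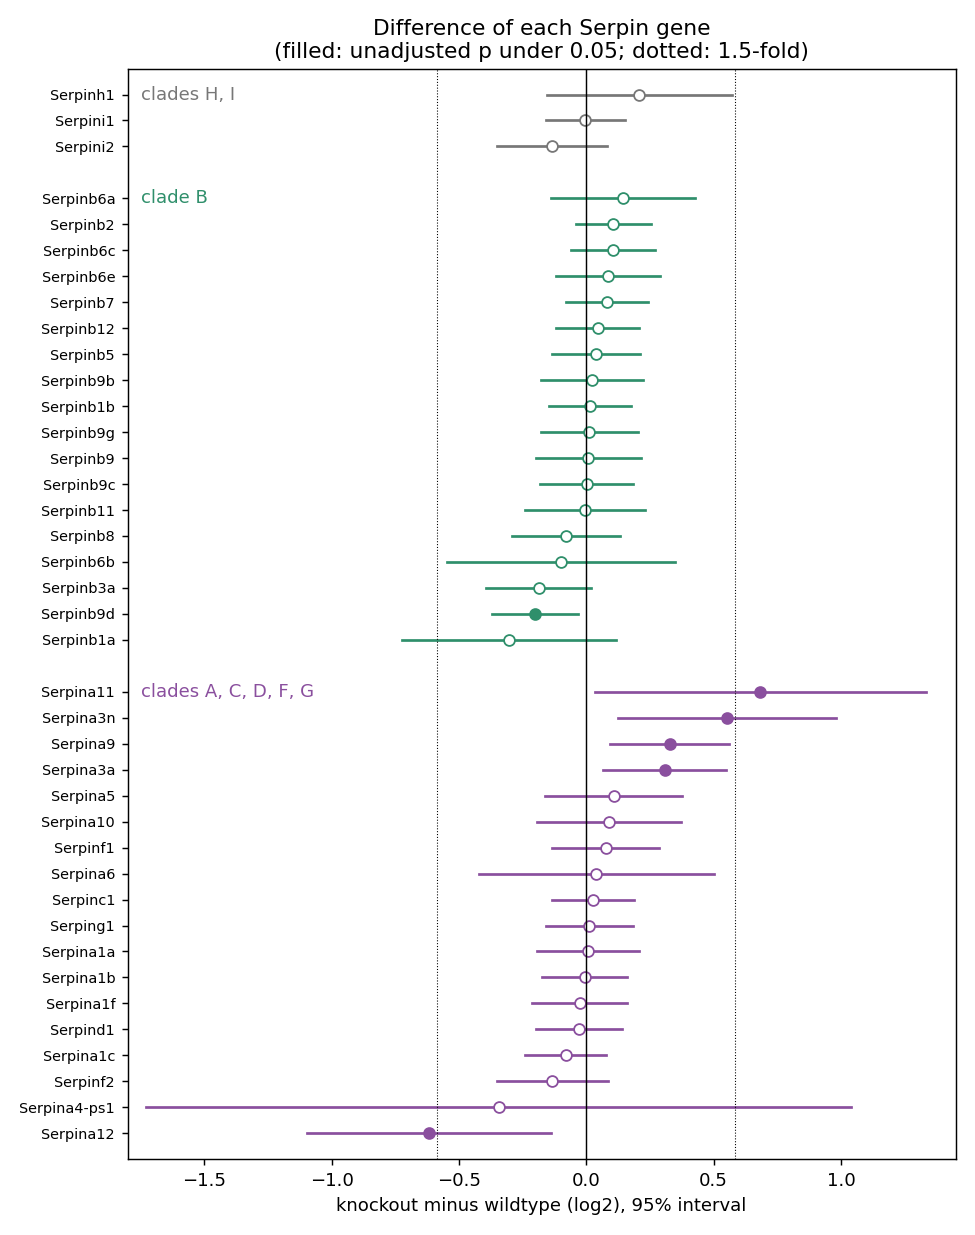
Difference of each of the 39 Serpin genes, knockout minus wildtype (log2, horizontal axis), with its 95% interval from limma; filled points have an unadjusted p under 0.05 and dotted lines mark a 1.5-fold change. The 5 filled points of the plasma clades are all clade A genes, and Serpinb9d is the filled point of clade B.

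In clade B, 12 members had positive and 6 had negative differences, from -0.30 to 0.15. The filter on dim probe sets, which left out means at or below the 40th percentile, kept 5 of the 18 (Serpinb1a, Serpinb6a, Serpinb6b, Serpinb9 and Serpinb9b) and left out the other 13, so most of the clade is read at the dim end of the array. It kept 15 of the 18 plasma clade members. Serpinb1a, the inhibitor of neutrophil elastase inside leukocytes, read 7.17, 7.36 and 6.79 on the wildtype and 6.41, 6.97 and 7.04 on the knockout arrays. Its lowest arrays were knockout 427 and wildtype 430, and the difference of -0.30 (SE 0.185, limma adjusted p = 0.982) was -0.107 without knockout 427 and -0.461 without wildtype 430. Without wildtype 430 the groups did not overlap, as for 22.2% of all probe sets. Without both arrays the difference was -0.264 (limma adjusted p = 0.676), again with no overlap, as for 34.6% of all probe sets. Of 7 neutrophil markers 6 had positive differences. The list mean stood -0.0401, 0.216 and 0.329 from the wildtype mean on knockout 427, 429 and 431. The part of these markers in the values of Serpinb1a was not tested.

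Serpinb9d, a mouse relative of the granzyme B inhibitor gene, read 6.06, 6.19 and 6.22 on the wildtype and 5.950, 5.914 and 6.003 on the knockout arrays. The knockout values all lay below, by little: the difference was -0.20 (SE 0.0739, limma adjusted p = 0.951). Serpinb9 itself, which protects cells from granzyme B, read 6.97, 7.12 and 6.83 against 6.97, 7.06 and 6.91, a difference of 0.01 (95% interval -0.199 to 0.215). Serpinb6a, an inhibitor of cathepsin G, read 8.35, 8.28 and 8.15 against 8.33, 8.69 and 8.20. Knockout 429 stood above the rest, and the difference of 0.15 was 0.00228 without it. Serpinb8, an inhibitor of furin, read 6.058, 6.213 and 5.995 against 5.98, 6.16 and 5.89, a difference of -0.08 (-0.292 to 0.133), and -0.0172 without wildtype 428. Serpinb2, plasminogen activator inhibitor type 2, had knockout values of 5.86, 5.85 and 5.86, all above the wildtype values of 5.74, 5.79 and 5.72, but its difference of 0.11 had a limma adjusted p of 0.982. Serpinb3a, the squamous cell carcinoma antigen of epithelia, had a difference of -0.19 (limma adjusted p = 0.982). For the others, Serpinb1b, Serpinb5 (maspin), Serpinb6b, Serpinb6c, Serpinb6e, Serpinb7, Serpinb9b, Serpinb9c, Serpinb9g, Serpinb11 and Serpinb12, differences ran from -0.0980 (Serpinb6b) to 0.105 (Serpinb6c).

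Set side by side, the plasma clades had 11 positive and 7 negative differences with a median of 0.0182, and clade B had 12 and 6 with a median of 0.0137. The median of all 16331 probe sets was 0.00586, with 8575 positive and 7756 negative. The mean of the clade B differences was -0.0117, opposite in sign to their median. The medians of the clades differed by 0.00456, a gap that turned negative when knockout 427, wildtype 428, wildtype 430 or knockout 431 was left out (-0.0347 to -0.0201). The same quantity in single arrays, the plasma median minus the clade B median relative to the wildtype mean, was 0.0370, -0.0874 and -0.0107 on the wildtype and 0.0540, -0.0741 and 0.1001 on the knockout arrays, so the groups overlapped. Unadjusted p-values under 0.05 were found for 5 of 18 plasma clade genes (27.8%) and 1 of 18 clade B genes (5.56%), where 4.99% of all probe sets had one, and the share in clade B is thus near that of all probe sets. The median within-group SD was 0.140 for the plasma clades (0.182 for clade A and 0.0743 for clades C, D, F and G), 0.106 for clade B and 0.103 for all probe sets. Most of clade B is dim, and among members left by the filter on dim probe sets the order was reversed. There the median within-group SD was 0.131 for 15 plasma clade genes and 0.195 for 5 clade B genes.

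Outside these clades, Serpinh1, or HSP47, the chaperone of the endoplasmic reticulum that folds collagen, read 7.38, 7.46 and 7.92 on the wildtype and 8.07, 7.66 and 7.66 on the knockout arrays. Knockout 427 and wildtype 430 were the highest arrays. The difference of 0.21 (95% interval -0.155 to 0.572, limma adjusted p = 0.982) was 0.0703 without knockout 427 and 0.377 without wildtype 430. Without wildtype 430 the groups did not overlap, as for 22.2% of all probe sets. Without both arrays the difference was 0.239, again with no overlap, as for 34.6% of all probe sets. Of 10 collagen chain genes 8 had positive differences, with a median of 0.0368. Col5a2 (0.18), 1 of the 10, had an unadjusted p under 0.05, a level met by 4.99% of all probe sets. The list means were -0.0863, 0.162 and -0.0758 on wildtype 426, 428 and 430. They were -0.0520, 0.172 and 0.0676 on knockout 427, 429 and 431. Any tie of the collagen genes to the Serpinh1 values was not tested. Serpini1, neuroserpin, an inhibitor of tissue plasminogen activator, read 6.058, 6.003 and 6.120 against 6.09, 6.03 and 6.05, a difference of -0.00293. Serpini2, known from the pancreas, read 5.93, 5.99 and 6.13 against 5.99, 5.71 and 5.95. Its highest value was on wildtype 430, the array with pancreatic transcripts. The difference of -0.13 was -0.0789 without that array and -0.0461 without knockout 429. Any part of the pancreatic transcripts in the Serpini2 values was not tested. Serpini1 and Serpini2 were both left out by the filter on dim probe sets.

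Other genes of serpin biology were counted over gene lists. None of 28 target proteases passed the adjusted test; 16 had positive and 12 negative differences (median 0.0182), and their mean was -0.00853. Hgfac (-0.28) and Furin (-0.25), 2 of the 28, had an unadjusted p under 0.05, a level met by 4.99% of all probe sets. The 6 clearance receptors and cofactors divided 3 and 3 (median -0.00228, mean 0.00328), and the 12 genes of folding and export from the endoplasmic reticulum divided 7 and 5 (median 0.00684), with Mcfd2 (0.19) at that level. Of 21 protease inhibitors outside the serpin family 15 had positive and 6 negative differences (median 0.0537), with none past the adjusted test and Itih3 (0.21) at an unadjusted p under 0.05. Of 20 acute phase genes, the program to which Serpina3n belongs, 12 had positive and 8 negative differences (median 0.0703) and none passed; Orm2 (0.79, limma adjusted p = 0.676) and Orm1 (0.20) had an unadjusted p under 0.05. The mean of this list was highest on knockout 431 (0.330) and lowest on wildtype 426 (-0.145). Serpina3n was highest on knockout 431 and high on wildtype 426. Any part of the acute phase program in the Serpina3n values was not tested. Of 7 genes of the growth hormone axis 3 had positive and 4 negative differences, and Cish, a feedback inhibitor of growth hormone signalling, fell by 1.29 (limma adjusted p = 0.0441). Its adjusted p lay between 0.0617 and 0.207 when any 1 array was left out, with differences from -1.37 to -1.12. Among markers of other cells, 8 of 8 for Kupffer cells and macrophages had negative differences, with list means from -0.0756 to 0.137 on the wildtype and -0.398 to 0.188 on the knockout arrays. All 5 platelet markers had positive differences, with list means from -0.0573 to 0.0473 on the wildtype arrays. On knockout 427, 429 and 431 the list means were 0.0234, 0.0358 and 0.761, so only knockout 431 lay outside the wildtype range. For cholangiocytes 4 of 6 markers had positive differences, for stellate cells 4 of 8, for endothelium 2 of 7 and for mesothelium 2 of 5.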

How the data were processed

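RNA of 6 liver samples was read on Affymetrix arrays after biotin labelling, as the labels' protocols state. The table the authors deposited holds log2 values, as its range of 5.38 to 14.69 shows; background correction, normalization, summarisation and detection calls were not given in the sources used here. It was used as deposited, without its 64 control probe sets. Row names hold 1 Entrez gene number each; symbols came from the platform annotation, which named 15644 of 16331 probe sets and left 687 unnamed, and all 39 members matched the reference gene table of GRCm38.p6. Genes of the naming rule without a matching symbol were not analysed here. No depth applies to arrays, and their number limits the precision.

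The groups were compared with limma 3.58.1 in R 4.3.3 (lmFit, eBayes, two-sided, with 4 residual degrees of freedom and a prior worth 4.85) on all 16331 probe sets, with Benjamini-Hochberg adjustment over all of them and a threshold of 0.05. The fit was tested on simulated data. Figures were drawn with matplotlib 3.10.9. Per-array values were given for members at an unadjusted p under 0.05, for a fixed set of well-known members, and for members with an array at least 1 away from the median. Alternatives were quantile normalization, median centring, array quality weights, a trended and robust prior variance, a filter on means at or below the 40th percentile, leaving out each array, and leaving out wildtype 430 with knockout 427. The labels and the table give no batch and no shared replicate numbers. The members and the 18 gene lists were chosen with earlier results of these data known, and the split of the clade A row after the values were seen.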

Additional observations from a re-analysis of the deposited data

How the results depend on the processing

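No member passed an adjusted p under 0.05 in any of the 12 alternatives, where the smallest adjusted p among members ran from 0.169 to 0.999. Members at an unadjusted p under 0.05 numbered 3 to 6 when 1 array was left out (3.58% to 6.95% of all probe sets). They numbered 4 to 6 in the other alternatives (4.91% to 6.75%). The genes were not always the same: Serpina9 was among them in all 12 alternatives, Serpina12 in 11 and Serpina11 in 5. With a trended and robust prior variance, and with array quality weights, Serpina11 was not among them and Serpinb3a was. Serpina4-ps1, Serpina5, Serpinb1a, Serpinf2 and Serpinh1 entered only when arrays were left out. Groups that did not overlap numbered 1 with the filter on dim probe sets, which tests 21 members (9.47% of all probe sets it tests). They numbered 3 or 4 in the other alternatives with all 6 arrays (9.57% to 9.93% of all probe sets). When 1 array was left out they numbered 3 to 9 (17.2% to 22.2%). Without both wildtype 430 and knockout 427 they numbered 10 (34.6%). Fewer arrays make this easier. The medians of the plasma clades (-0.00977 to 0.0366) and of clade B (-0.0193 to 0.0510) and the gap between them (-0.0608 to 0.0368) moved by less than their SD between arrays, but each changed sign: the plasma median without wildtype 430 with or without knockout 427, the clade B median without knockout 429, and the gap with array quality weights (-0.0231) and without knockout 427 (-0.0347), wildtype 428 (-0.0201), wildtype 430 (-0.0241), knockout 431 (-0.0312) or both 430 and 427. Of 24 named members, 13 kept their direction whichever array was left out. The other 11 turned, and the cause was not tested. Their differences ran from -0.00179 to 0.213 (Serpina10), -0.0671 to 0.0706 (Serpina1a), -0.0462 to 0.0260 (Serpina1b), -1.06 to 0.334 (Serpina4-ps1), -0.133 to 0.266 (Serpina6), -0.0649 to 0.0845 (Serpinb9), -0.00146 to 0.0586 (Serpinc1), -0.0645 to 0.00684 (Serpind1), -0.0101 to 0.129 (Serpinf1), -0.0291 to 0.0573 (Serping1) and -0.0316 to 0.0270 (Serpini1). With array quality weights Serpina1a (-0.0193), Serpina6 (-0.0189), Serpinb9 (-0.00564) and Serpini1 (0.00121) turned. Without both wildtype 430 and knockout 427 Serpina1a (-0.0947), Serpina1b (0.0283), Serpina6 (-0.0410), Serpinb9 (-0.0605), Serpinc1 (-0.0156) and Serpini1 (0.0112) turned.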

Other observations

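Knockout 427 and wildtype 430, from opposite groups, were together the highest 2 or the lowest 2 arrays for 11 of the 39 Serpin genes (28.2%), against 19.4% of all probe sets. They were the highest for Serpina10, Serpina4-ps1, Serpinb6c, Serpinh1 and Serpini1, and the lowest for Serpina6, Serpinb1a, Serpinb6b, Serpind1, Serpinf1 and Serping1. The 6 of these in the plasma clades make up 33.3% of that set, and the 3 in clade B 16.7%. For Serpinh1 (0.377) and Serpinb1a (-0.461) the groups did not overlap once wildtype 430 alone was left out, as for 22.2% of all probe sets, and neither passed limma's adjusted test there (adjusted p = 0.622 and 0.660).

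Serpina12 had a span over the 6 arrays that 85 of 16331 probe sets reached (0.521%), Serpina11 one that 102 reached (0.625%) and Serpina3n one that 150 reached (0.919%), while the alpha-1-antitrypsin copies spanned 0.145 to 0.275. Serpinb1a had the widest span of clade B, 0.951.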
